A study of Mus musculus with 12 samples.

Results

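The 9 genes described here are the Toll-like receptors Tlr1, Tlr2, Tlr3, Tlr4, Tlr7 and Tlr9, the adaptor Myd88 and the co-receptors Cd14 and Ly96, chosen by gene symbol from the 25124 genes that each expression table lists. Toll-like receptors sense molecules shed by microbes or by damaged cells. The receptors at the cell surface (TLR1, TLR2, TLR4) recognise lipoproteins and lipopolysaccharide, and those of the endosome (TLR3, TLR7, TLR9) recognise nucleic acids. All of them except TLR3 signal through the adaptor MyD88, which leads to NF-kB and the production of cytokines, and in the retina they are known mainly from microglia, with TLR3 also in other cells. CD14 hands lipopolysaccharide to TLR4, and Ly96 encodes MD-2, the subunit that binds it there.

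Poly(A) RNA of bulk retina from wild-type C57BL/6J mice was sequenced in 12 libraries, 2 in each of 6 groups. In the single-elevation experiment 1 eye of each mouse was held at an intraocular pressure (IOP) of 30 mmHg for 1 h at an age of 3 or 18 months, and retinas were taken on day 2 (3mo IOP, 18mo IOP) together with retinas of untreated fellow eyes (3mo control, 18mo control). In the repeated experiment the same elevation was given 4 times at intervals of 2 weeks to mice that were 3 months old at the first, and retinas were taken on day 2 after the last (4xIOP), again with untreated fellow eyes (4xIOP control). Pressure was raised through a needle in the anterior chamber, which the control eyes did not receive. The study calls the libraries of a group biological replicates, and the labels do not tie library numbers to mice.

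The values are FPKM (fragments per kilobase of transcript, scaled to the mapped tags of the library), and each library held between 39766235 and 59455053 mapped tags, as estimated from the steps between low values. At that depth Tlr9 in a 3mo control library rested on 2 reads, while Tlr2 in an 18mo IOP library rested on 1320. The 8 rod photoreceptor markers summed to between 12380 and 25170 FPKM in the single-elevation libraries and between 5062 and 10970 FPKM in the repeated ones, so the defining genes of the labelled tissue were present throughout. They were lower in both 18mo control libraries (18290 and 16270 FPKM) than in both 3mo ones (21670 and 25170 FPKM), with 1 of 8, Sag, called lower, beside 11.6% of all genes. They were also lower in some IOP groups, at 10410 and 10970 FPKM in 4xIOP control against 5062 and 7602 FPKM in 4xIOP retina, and at 18290 and 16270 against 12380 and 14590 FPKM in the 18-month eyes. The 8 markers of the retinal pigment epithelium, the layer beneath the retina, summed to 76.7 and 61.9 FPKM in 3mo control and 333 and 148 FPKM in 3mo IOP retina, where 1 of 6 tested was called higher, beside 0.568% of all genes, and to between 0.988 and 5.57 FPKM at 18 months. In bulk tissue a larger number of expressing cells and more RNA per cell cannot be told apart.

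Levels per length differed widely between the 9 genes. In 3mo control retina Myd88 was the highest of them, at a mean of 2.26 FPKM ± 0.347 (SD, n = 2). Tlr3 followed at 1.38 FPKM ± 0.117, Ly96 at 1.26 FPKM ± 0.899 and Cd14 at 0.759 FPKM ± 0.375. The 2 libraries of Ly96 spanned those of Tlr3 and overlapped those of Cd14, so its place in the order was not resolved. Tlr4 (0.128 FPKM ± 0.00778), Tlr2 (0.097 FPKM ± 0.0297), Tlr7 (0.0905 FPKM ± 0.0205), Tlr1 (0.04 FPKM ± 0.0311) and Tlr9 (0.007 FPKM ± 0.0099) were lower, resting on 40 and 50 reads for Tlr4 but on 2 and 0 for Tlr9. By group means Tlr2 was the sixth of 9 in 3mo control and in 4xIOP control retina, but the second, after Myd88, in 18mo control, 18mo IOP and 4xIOP retina. These places are not resolved from their neighbours: its libraries overlapped those of Tlr7 in 3mo control, of Tlr4 and Tlr7 in 4xIOP control, of Cd14 in 4xIOP and of Myd88 in both 18-month groups. Myd88 had the highest mean of the 9 in all 6 groups, although Tlr2 exceeded it in 1 library of each 18-month group. The genes Tlr2, Tlr3, Myd88, Cd14 and Ly96 reached a mean of 0.5 FPKM in both tables and were tested with limma. Tlr1, Tlr4, Tlr7 and Tlr9 did not, and are described by their reads. Tlr2 passed that filter only through the groups in which it was high, so its passing already required a difference, and in the repeated experiment the same held for Cd14 and Tlr3.

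**Figure D1:**
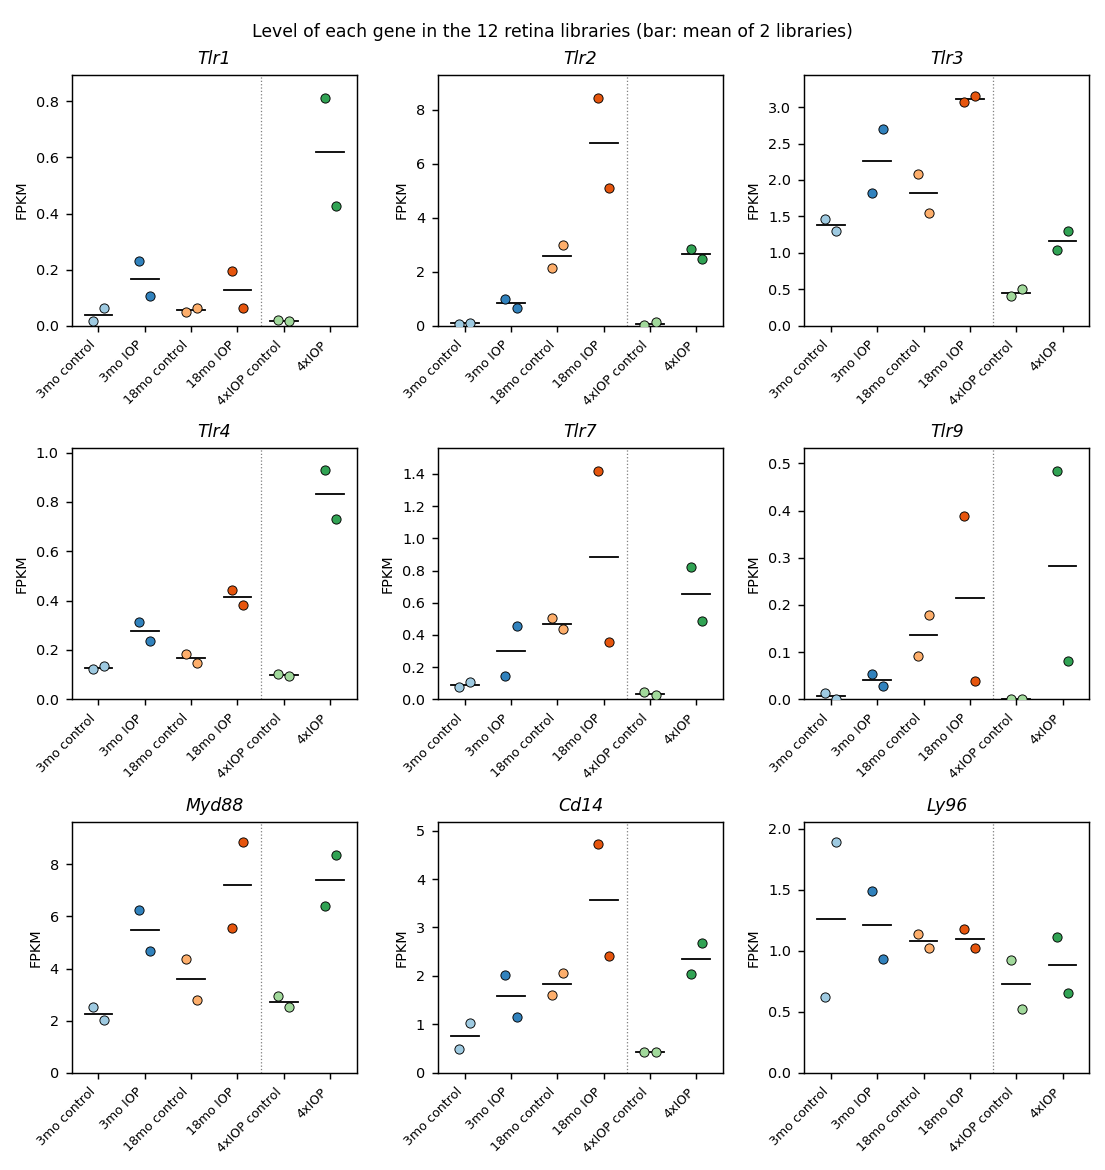
Level in FPKM (vertical axes, each starting at 0) of the 9 genes in the 6 groups, 1 point per library and a bar at the mean of 2, with a dotted line between the separately normalized tables. Tlr2 is at most 0.133 FPKM in the 4 libraries of 3mo control and 4xIOP control and between 2.14 and 8.43 FPKM in the 4 libraries at 18 months, while Ly96 shows no separation in any comparison.

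RefSeq promoter windows of GRCm38.p6 were at hand for 5 of the 9 genes (Tlr1, Tlr2, Tlr3, Tlr9, Myd88). The 250 bases before the annotated start are shown for the 3 of them that passed the level filter, on the strand of the gene (minus in each case), with capitals at every match to one of 4 motifs searched on both strands. These were the NF-kB consensus, the STAT element GAS (TTCNNNGAA), the IRF core (GAAANNGAA) and the PU.1 core (GAGGAA). The Tlr2 window lies at chr3:83841609-83841858, that of Tlr3 at chr8:45410381-45410630 and that of Myd88 at chr9:119340019-119340268.
Tlr2: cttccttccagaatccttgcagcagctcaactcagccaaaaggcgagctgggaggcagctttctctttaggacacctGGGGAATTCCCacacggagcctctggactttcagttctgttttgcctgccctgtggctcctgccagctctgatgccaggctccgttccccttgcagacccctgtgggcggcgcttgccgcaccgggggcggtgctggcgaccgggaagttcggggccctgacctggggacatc
Tlr3: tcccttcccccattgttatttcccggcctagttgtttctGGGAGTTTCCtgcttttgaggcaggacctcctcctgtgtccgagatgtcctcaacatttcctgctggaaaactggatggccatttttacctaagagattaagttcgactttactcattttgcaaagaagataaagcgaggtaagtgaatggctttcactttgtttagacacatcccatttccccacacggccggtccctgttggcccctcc
Myd88: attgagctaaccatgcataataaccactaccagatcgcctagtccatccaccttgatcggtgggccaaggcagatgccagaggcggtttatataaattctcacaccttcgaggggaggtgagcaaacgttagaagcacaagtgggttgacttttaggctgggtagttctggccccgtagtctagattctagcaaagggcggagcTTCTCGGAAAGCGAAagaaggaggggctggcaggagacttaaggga
The capitals in Tlr2 are 3 overlapping readings of the NF-kB consensus, between 173 and 163 bases before the start. The capitals in Tlr3 are 1 NF-kB match, 211 to 202 bases before the start. The capitals in Myd88 are a GAS match from 46 to 38 bases before the start, which overlaps an IRF core from 40 to 32 bases before it. Of 32817 promoter windows of this length in the mouse genome, 7.25% held the NF-kB consensus, 7.01% GAS, 7.12% the IRF core and 23.3% the PU.1 core. For Tlr3 the window precedes the isoform counted in the repeated experiment and lies mostly within the genomic span of the 1 counted in the single-elevation experiment, which starts, on the minus strand, at position 45410619. A match describes letters only, and binding was not measured here.

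The repeated experiment asked what recurrent mild pressure does to young retina. Of the 5 tested genes, 3 were called higher in 4xIOP than in 4xIOP control retina, with none lower, beside 5.45% of all tested genes called higher. To be called, a gene needed an adjusted p (Benjamini-Hochberg, over all genes) no higher than 0.05 and a difference of 1 or more in log2(FPKM + 0.5), a scale that understates changes of low genes. The called genes were the receptor Tlr2, the co-receptor Cd14 and the shared adaptor Myd88. Of the 5 tested genes, 3 had a control mean under the filter, Tlr2 and Cd14 among them. Both could therefore be tested only through the 4xIOP libraries, so being tested already required a rise. All 4 genes under the filter were higher in both 4xIOP libraries than in both controls, as were 4 of the 5 tested ones, beside 27.7% of tested genes.

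Tlr2 (chr3:83836272-83841608 of mm10, minus strand), the receptor for lipoproteins, measured 0.018 and 0.133 FPKM in the 4xIOP controls (2 and 16 reads) and 2.86 and 2.47 FPKM in 4xIOP retina (457 and 297 reads). The groups did not overlap, and reads per mapped tag were 34.9 times higher (95% interval 22.0 to 59.3, which like all intervals of read ratios covers counting error only). On the log2(FPKM + 0.5) scale the rise was 2.46 ± 0.24 (SE, adjusted p = 1.84e-05, limma). Of 13718 genes tested, 1.19% had a larger fitted rise.

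Tlr1 (chr5:64924680-64932699, minus strand) forms a heterodimer with TLR2. It had 2 and 2 reads in the 4xIOP controls (0.019 and 0.017 FPKM) and 124 and 49 in 4xIOP retina (0.813 and 0.427 FPKM). Both treated libraries were far above both controls, at a read ratio of 36.1 (13.8 to 134).

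Cd14 (chr18:36725064-36726815, minus strand) measured 0.425 and 0.428 FPKM in the 4xIOP controls and 2.03 and 2.67 FPKM in 4xIOP retina. The groups did not overlap and the rise was 1.61 ± 0.23 on the log2(FPKM + 0.5) scale (adjusted p = 0.000401, limma), with a read ratio of 5.41 (4.09 to 7.26). Tlr4 (chr4:66827551-66846581, plus strand), to which CD14 presents lipopolysaccharide, went from 0.102 and 0.096 FPKM (32 and 32 reads) to 0.928 and 0.732 FPKM (411 and 244 reads), a ratio of 8.54 (6.6 to 11.2). The remaining subunit of this receptor stood apart. Ly96 (chr1:16688456-16709605, plus strand) measured 0.928 and 0.523 FPKM in the controls and 1.12 and 0.655 FPKM in 4xIOP retina, overlapping ranges, with a fitted difference of 0.18 (95% interval -0.41 to 0.77, adjusted p = 0.910, limma).

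Myd88 (chr9:119335934-119340018, minus strand) measured 2.93 and 2.52 FPKM in the 4xIOP controls and 6.39 and 8.38 FPKM in 4xIOP retina. Its groups did not overlap, and it rose by 1.28 ± 0.21 on the log2(FPKM + 0.5) scale (adjusted p = 0.00124, limma). Without the second 4xIOP library the rise of Myd88 was 1.10 with an adjusted p of 0.0509 (limma), so that its call rests on that library. The annotated gene Slc22a14, which overlaps Myd88 on the same strand, was listed at no more than 0.022 FPKM in any library.

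Of the endosomal receptors, Tlr7 (chrX:167304926-167330571, minus strand), a sensor of single-stranded RNA, had 7 and 4 reads in the 4xIOP controls and 178 and 79 in 4xIOP retina, a ratio of 19.5 (10.7 to 39.5). Tlr9 (chr9:106222598-106226876, plus strand), the sensor of unmethylated CpG DNA, had no read in either control and 94 and 12 reads in 4xIOP retina (0.483 and 0.082 FPKM). Its mean was at least 13.0-fold higher than the floor of 3 reads in a control library, although the 2 treated libraries differed widely from each other. Tlr3 (chr8:45395665-45410380, minus strand), the sensor of double-stranded RNA, was 0.404 and 0.505 FPKM in the controls and 1.04 and 1.30 FPKM in 4xIOP retina. Its fitted difference of 0.80 did not pass the test (adjusted p = 0.0675, limma), though the libraries did not overlap and the read ratio was 2.52 (2.11 to 3.03).

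A fit in limma-voom to the recovered reads, chosen after seeing the data, admitted all 9 genes and called 8 of them higher in 4xIOP retina, all but Ly96, beside 5.75% of the genes in that fit. Tlr1, Tlr2, Tlr7 and Tlr9 did not reach its 10 reads in both controls and were admitted through the 4xIOP libraries, so being tested already required a rise. In it the adjusted p was 0.0223 for Tlr1, 0.00571 for Tlr4, 0.0175 for Tlr7, 0.0417 for Tlr9 and 0.0362 for Tlr3. With the FPKM fit and no filter on low values 6 of the 9 were called, beside 3.24% of genes, and with a filter at a mean of 2 FPKM only Myd88 was tested and was called, beside 3.83%.

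**Figure D2:**
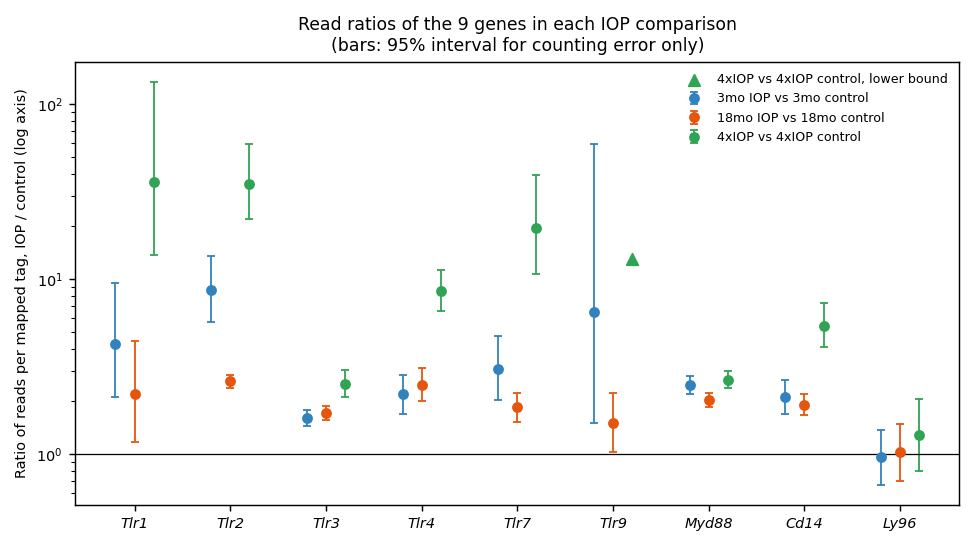
Ratio of reads per mapped tag between IOP and control libraries (log axis) for the 9 genes in the 3 IOP comparisons, with 95% intervals for counting error only and a triangle for the lower bound of Tlr9 against a control at 0. After 4 elevations the ratios run from 1.28 for Ly96 to 36.1 for Tlr1, and after a single one from 0.96 (Ly96) to 8.63 (Tlr2) at 3 months and from 1.02 (Ly96) to 2.6 (Tlr2) at 18 months.

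After a single elevation none of the 5 tested genes was called at either age. At 3 months 0.568% of genes were called higher and at 18 months 0.117%, so few genes of any kind passed. An unadjusted p under 0.05 was found for 3 of the 5 genes at each age, all higher, beside 8.28% of genes at 3 months and 8.71% at 18 months, and in limma-voom none was called. The libraries still separated for most of the genes. At 3 months 4 of the 5 tested genes and all 4 genes under the filter were higher in both IOP libraries than in both controls, beside 28.6% of tested genes. At 18 months it was 4 of the 5 and 1 of the 4, beside 36.5%.

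Tlr2 measured 0.076 and 0.118 FPKM in 3mo control retina and 0.988 and 0.665 FPKM in 3mo IOP retina. These groups did not overlap, and the read ratio was 8.63 (5.7 to 13.6), but the fitted change of 1.14 ± 0.28 did not pass (adjusted p = 0.165, limma). With a smaller pseudocount of 0.1 FPKM the change was 2.22 and was called (adjusted p = 0.0441, limma). At 18 months Tlr2 stood at 2.14 and 2.99 FPKM without IOP and at 8.43 and 5.11 FPKM with it, again without overlap. Its read ratio there was 2.6 (2.38 to 2.84) and its fitted change 1.22 ± 0.28 (adjusted p = 0.150, limma).

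Myd88 went from 2.51 and 2.02 FPKM to 6.26 and 4.69 FPKM at 3 months, and from 4.36 and 2.80 FPKM to 5.54 and 8.84 FPKM at 18 months. Neither pair of groups overlapped. The fitted changes of this adaptor were 1.11 ± 0.28 (adjusted p = 0.187) and 0.91 ± 0.28 (adjusted p = 0.269, both limma).

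When the effect of IOP was averaged over both ages, Tlr2 (1.18 ± 0.20, adjusted p = 0.0238) and Myd88 (1.01 ± 0.20, adjusted p = 0.0408, both limma) were called higher, 2 of 5 beside 1.85% of genes. The call of Tlr2 was lost without the first 3mo control, the first 3mo IOP or either 18mo control library (adjusted p between 0.0635 and 0.125), and that of Myd88 without any library other than the first 18mo IOP library (between 0.0502 and 0.198, all limma). Cd14 (0.74, adjusted p = 0.198), Tlr3 (0.59, adjusted p = 0.0971) and Ly96 (0.03, adjusted p = 0.979, all limma) did not pass. Neither Tlr2 nor Myd88 was called in limma-voom, with an adjusted p of 0.0599 for Tlr2 and 0.127 for Myd88. Without a filter on low values neither was called (adjusted p = 0.0692 and 0.0938, limma), nor with a pseudocount of 1 or quantile normalization. With a replicate block, median-of-ratios factors or the length trend removed they were not both called.

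Cd14 went from 0.494 and 1.02 FPKM to 2.02 and 1.14 FPKM at 3 months, and from 1.60 and 2.06 FPKM to 4.72 and 2.41 FPKM at 18 months. No control library reached the lower IOP library of its age, and the co-receptor was higher by fitted values of 0.73 and 0.75 that did not pass the test (adjusted p = 0.678 and 0.603, limma). Tlr4 was likewise higher in both IOP libraries at each age, from 0.122 and 0.133 to 0.313 and 0.237 FPKM at 3 months and from 0.185 and 0.146 to 0.441 and 0.384 FPKM at 18 months. Its read ratios were 2.19 (1.7 to 2.84) and 2.49 (2.02 to 3.09).

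Ly96 did not separate at either age. It measured 0.622 and 1.89 FPKM in 3mo control and 1.49 and 0.930 FPKM in 3mo IOP retina, with fitted differences of 0.04 at 3 months (95% interval -0.77 to 0.85) and 0.02 at 18 months (-0.79 to 0.83). The isoform counted for Ly96 spans 542 bases, so that its values rest on between 12 and 49 reads per library.

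Tlr3, in the endosome, went from 1.46 and 1.29 to 1.82 and 2.70 FPKM at 3 months and from 2.08 and 1.55 to 3.08 and 3.15 FPKM at 18 months, separated at both ages, with fitted values of 0.54 and 0.65 (adjusted p = 0.548 and 0.338, limma). Tlr7 had 12 and 19 reads in 3mo control and 30 and 72 in 3mo IOP libraries, and 84 and 77 in 18mo control against 295 and 80 in 18mo IOP libraries, where the groups overlapped. Tlr9 had 14 and 29 reads in 18mo control and 74 and 8 in 18mo IOP retina, also overlapping. At 3 months Tlr9 had only 2 and 0 reads in the controls and 10 and 4 with IOP, a ratio of 6.51 (1.5 to 59), and Tlr1 had 2 and 8 reads in the controls and 34 and 12 with IOP, a ratio of 4.28 (2.13 to 9.51). For Tlr1 the 18-month groups overlapped, at 6 and 8 against 29 and 10 reads.

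A difference in the response to a single elevation between 3 and 18 months was tested by an interaction term, and none of the 5 genes passed, nor had any an unadjusted p under 0.05, which 1.59% of genes did. For Tlr2 the interaction was 0.08 (95% interval -0.83 to 0.99, adjusted p = 1.00, limma). Its read ratios of 8.63 and 2.6 differ, and limma-voom gave -1.62, with an unadjusted p of 0.0702 in that fit across all genes. The sign of this interaction thus differed between the fits. The interaction was 0.02 for Cd14, 0.11 for Tlr3, -0.20 for Myd88 and -0.03 for Ly96.

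**Figure D3:**
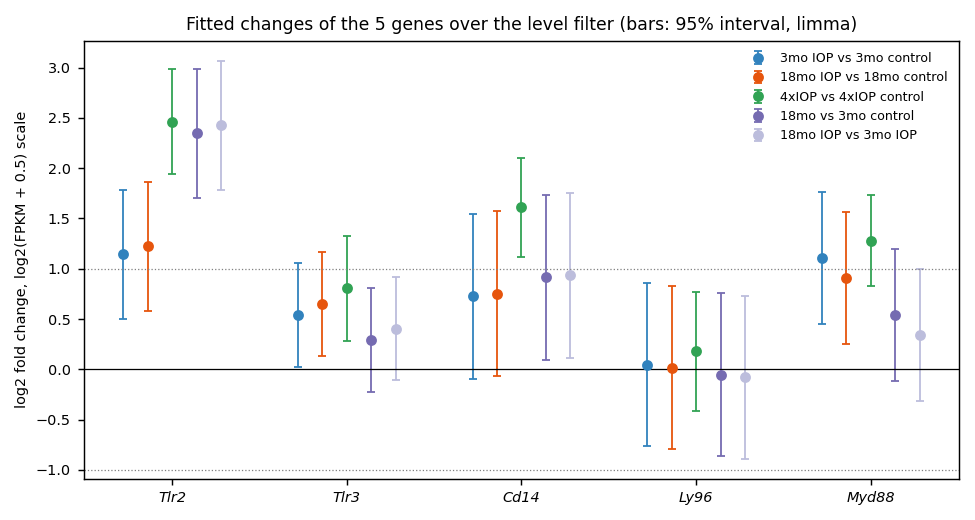
Fitted log2 fold change on the log2(FPKM + 0.5) scale of the 5 tested genes in 5 comparisons, with 95% intervals from limma and dotted lines at a change of 1 in either direction. Tlr2 lies above 2 for both age comparisons and for 4xIOP, while every interval of Ly96 includes 0.

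Age was the question behind the contrast of untreated eyes, and Tlr2 was the 1 of 5 tested genes called higher in 18mo control than in 3mo control retina, beside 11.6% of genes. Its 2.14 and 2.99 FPKM (267 and 399 reads) stood against 0.076 and 0.118 FPKM (9 and 16 reads), without overlap and at a read ratio of 26.2 (17.6 to 40.8). The fitted rise was 2.35 ± 0.28 (adjusted p = 0.00417, limma), and 0.24% of the 13731 tested genes had a larger one. The call held without any 1 library, the adjusted p then reaching 0.0417 at most. Between the IOP eyes of both ages Tlr2 was again the only 1 of 5 called, higher by 2.43 ± 0.28 (adjusted p = 0.0026, limma), beside 10.2% of genes.

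Cd14 was higher in both 18mo control libraries than in both 3mo ones, by a fitted 0.91 ± 0.36 that missed the threshold (adjusted p = 0.0654, limma). Between the IOP eyes its difference was 0.94 (adjusted p = 0.0644, limma). With the trend of each library with transcript length removed Cd14 was called in both contrasts (1.15, adjusted p = 0.0241, and 1.21, adjusted p = 0.0236, limma), and between the IOP eyes also without the second 18mo IOP library (1.36, adjusted p = 0.041, limma). Myd88 (0.54, adjusted p = 0.148) and Tlr3 (0.29, adjusted p = 0.303, both limma) were also higher in both 18mo controls, so that 4 of 5 tested genes were higher in both 18mo libraries, beside 45.7% of all tested genes. For the IOP eyes it was 3 of 5 and, of the genes under the filter, 1 of 4 (Tlr4), beside 43.2%. There Tlr3 gave 0.41 (adjusted p = 0.172), Myd88 0.34 (adjusted p = 0.349) and Ly96 -0.08 (adjusted p = 0.866, all limma).

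Of the 4 genes under the filter, 3 were higher in both 18mo controls, beside 45.7% of tested genes. Tlr7 had 12 and 19 reads at 3 months and 84 and 77 reads at 18 months, a ratio of 5.12 (3.47 to 7.78), and Tlr9 had 2 and 0 against 14 and 29 reads, a ratio of 21.2 (5.52 to 180). Neither was called in limma-voom (adjusted p = 0.135 and 0.108). The ratio was 1.29 (0.973 to 1.72) for Tlr4 and 1.38 (0.57 to 3.47) for Tlr1, whose groups overlapped. Ly96 gave -0.05 (-0.86 to 0.76). When the trend of each library with transcript length was removed, Ly96 instead gave 0.99, so that its direction with age depends on that correction.

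The age contrast came with other differences between the libraries. The 8 endothelial markers summed to between 9.97 and 16.0 FPKM at 3 months and between 68.6 and 97.7 FPKM at 18 months, and 7 of the 8 were called higher in 18mo control retina, beside 11.6% of genes. After a single elevation at 18 months they went from 68.6 and 70.1 to 97.7 and 95.8 FPKM, with none called. Of the 8, 4 were higher in both IOP libraries, beside 36.5% of genes tested. Kdr alone went from 30.2 and 28.4 to 45.2 and 52.9 FPKM. The fitted changes of Pecam1 (-0.10) and Tek (-0.20) were below 0, and the others above it. Of the 7 called with age, Cdh5, Tek and Vwf had a 3mo control mean under the filter. The 8 markers of Müller glia and astrocytes went from 696 and 1070 FPKM in 3mo control to 1888 and 1511 FPKM in 18mo control retina, with 3 of 8 called higher, beside 11.6% of genes. They stood at 2864 and 2818 FPKM in 18mo IOP retina, where 1 of 8 was called higher against 18mo control, beside 0.117% of genes. The pigment epithelium markers given above went the opposite way, with 6 of 6 tested called lower, beside 11.6% of genes. In the 18-month eyes the 7 blood markers went from 166 and 426 FPKM without to 54.3 and 44.3 FPKM with a single elevation, and the 8 lens markers from 3.45 and 4.80 to 6.76 and 21.1 FPKM, with none called in either list. The part of any of these in the values of the 9 genes was not tested.

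The summed microglia markers were higher wherever Tlr2 was, though not every marker was. The 11 used here summed to 14.7 and 20.2 FPKM without and 44.4 and 36.8 FPKM with a single elevation at 3 months, and to 47.1 and 54.0 FPKM without and 140.2 and 63.8 FPKM with it at 18 months. Of the 11, 10 were higher in both IOP libraries at 3 months, beside 28.6% of genes tested, and 3 at 18 months, beside 36.5%, where C1qa alone made up 73.1 and 42.7 FPKM of the sums. In the second 18mo IOP library P2ry12 (1.46 FPKM), Tmem119 (0.619 FPKM) and Siglech (0.231 FPKM), markers of resting microglia, were below both 18mo controls. In the repeated experiment they summed to 9.88 and 9.80 FPKM in the controls and 74.2 and 79.7 FPKM in 4xIOP retina, with 7 of 9 tested called higher, beside 5.45% of all genes, 4 of the 9 having a control mean under the filter. The 14 markers of infiltrating leukocytes went from 1.16 and 0.636 FPKM in the 4xIOP controls to 62.5 and 57.1 FPKM in 4xIOP retina. Among these S100a8 and S100a9, calcium-binding proteins of neutrophils and monocytes, reached 26.5 and 16.0 FPKM in the second 4xIOP library, and Ccr2, the chemokine receptor of inflammatory monocytes, 4.18 and 3.03 FPKM, while Ly6g, which defines neutrophils, was at 0 in 1 of the 2 4xIOP libraries and at 0.04 FPKM in the other. After a single elevation the leukocyte markers went from 1.37 and 1.87 to 5.40 and 5.75 FPKM at 18 months, with S100a8 at 0 in both controls and at 1.22 and 1.52 FPKM with IOP. At 3 months they overlapped, at 2.78 and 11.5 FPKM in the controls, the latter mostly Plac8 (10.4 FPKM), and 7.31 and 3.47 FPKM with IOP. Tissue next to the retina moved too in the repeated experiment. The 8 lens markers went from 4.87 and 0.742 FPKM to 49.1 and 111.8 FPKM in 4xIOP retina, with 6 of 6 tested called higher, beside 5.45% of all genes, 4 of them with a control mean under the filter, and the pigment epithelium markers from 8.28 and 13.2 FPKM to 0.891 and 1.85 FPKM, with 2 of 2 called lower, beside 0.693%. The 8 endothelial markers went from 26.3 and 34.3 to 59.1 and 60.1 FPKM, with 2 of 7 tested, Kdr and Vwf, called higher, beside 5.45% of all genes. Of the 8, 6 were higher in both 4xIOP libraries, beside 27.7% of genes tested, while Cldn5 and Flt1 overlapped. Kdr made up much of the sums, at 14.7 and 19.1 FPKM in the controls and 33.1 and 44.3 FPKM in 4xIOP retina. The part of any of these in the receptor values was not tested.

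Set against the summed microglia markers of the same library, a quotient that no scaling of the library changes, the genes differed from each other. Cd14 lay between 2.74% and 5.06% of that sum in all 12 libraries. Its groups overlapped in each comparison of the single-elevation experiment, and in the repeated one it was 4.30% and 4.37% in the controls and 2.74% and 3.35% in 4xIOP retina. Tlr2 varied far more: it went from 0.518% and 0.583% to 2.23% and 1.81% with IOP at 3 months, from 4.53% and 5.54% to 6.01% and 8.01% at 18 months, and from 0.182% and 1.36% to 3.85% and 3.09% in the repeated experiment. For Tlr2 each IOP group lay above its controls, and each 18-month group above its 3-month counterpart. Myd88 made up 29.7% and 25.7% of the microglia sum in the 4xIOP controls and 8.60% and 10.5% in 4xIOP retina, and so grew less than the markers did. These quotients are descriptions over 2 libraries a group, and the markers themselves may change per cell.

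**Figure D4:**
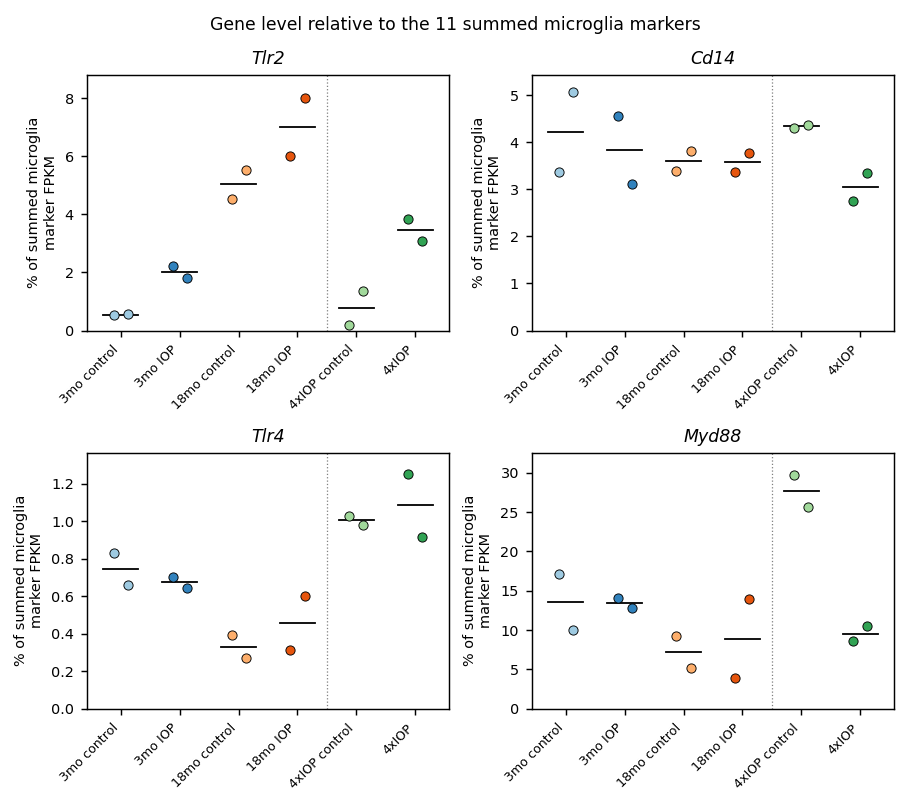
Level of Tlr2, Cd14, Tlr4 and Myd88 as a percentage of the summed FPKM of 11 microglia markers in the same library (vertical axes start at 0), 1 point per library and a bar at the mean of 2. Cd14 lies between 2.74% and 5.06% throughout, and Tlr2 runs from 0.182% to 8.01%.

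The 2 libraries of 18mo IOP retina also differed from each other. The first, with 140.2 FPKM of microglia markers against 63.8 FPKM in the second, also had the higher Tlr2 (8.43 against 5.11 FPKM), Cd14 (4.72 against 2.41 FPKM), Tlr7 (1.42 against 0.355 FPKM) and Tlr9 (0.389 against 0.039 FPKM). Myd88 ran the other way, at 5.54 FPKM in the first and 8.84 FPKM in the second, and Tlr3 was level at 3.08 and 3.15 FPKM.

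The rest of the pathway was followed in lists of genes written from general knowledge. Of 6 further Toll-like receptors only Tlr13, an endosomal sensor of bacterial ribosomal RNA, passed the filter, and only in the repeated experiment, where it went from 0.05 and 0.035 FPKM to 1.48 and 1.23 FPKM. It was called higher there (1.77, adjusted p = 0.000539, limma), but reached the filter only through the 4xIOP libraries, so that being tested already required a rise. Tlr6, the alternative partner of TLR2, was at 0 and 0.019 FPKM in the 4xIOP controls and 0.447 and 0.113 FPKM in 4xIOP retina. Tlr5, the flagellin receptor, stayed at or below 0.147 FPKM in every library.

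Among 12 further adaptors and accessory proteins, 2 of 8 tested were called higher in 4xIOP retina, beside 5.45% of all genes. The called genes were Unc93b1, which escorts the endosomal receptors to their compartment (2.98, adjusted p = 2.47e-06), and Ly86, the partner of the TLR4-like receptor CD180 (2.65, adjusted p = 2.87e-06, both limma). Of the 8 tested, 3 had a control mean under the filter, Unc93b1 among them. The median of the list was 0.41, beside 0.10 over all genes tested. With age 2 of 9 were called higher in untreated eyes, Unc93b1 (1.40) and Sarm1 (1.36), beside 11.6% of all genes, and after a single elevation none was at either age. Unc93b1 was thus called with age and after repeated elevation, as Tlr2 was.

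Of 22 kinases, ubiquitin ligases and transcription factors that relay the signal, 21 were tested in each experiment. In 4xIOP retina 4 were called higher, beside 5.45% of all genes, and none lower: Irf7 (2.29), Pik3ap1 (1.76), Irf5 (1.64) and Map3k8 (1.29). Of the 21, 3 had a control mean under the filter, Irf5 and Map3k8 among them, so that both could be tested only through the 4xIOP libraries. The list's median was 0.28, beside 0.10 over all genes. Irf7, the factor that drives interferon genes, was also the 1 relay gene called of 21 after a single elevation at 3 months, beside 0.568% of all genes (1.69, adjusted p = 0.0293, limma). With age 5 of 21 were called higher, beside 11.6% of all genes, led by Irf7 (1.94), Rela (1.23), Ikbkb (1.22) and Irak2 (1.07).

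The genes listed as inhibitors or other regulators of the pathway went both ways in the repeated experiment. Of 9 tested, 4 were called higher, among them Atf3 (2.27) and Nfkbiz (1.31), beside 5.45% of all genes, and 2 lower, beside 0.693%. Another of the higher ones, Irak3, had a control mean under the filter and could be tested only through its rise. The lower ones were Tnfaip3 (-1.82), the ubiquitin-editing brake on NF-kB also called A20, and the phosphatase Dusp1 (-1.26). With age 4 of 9 were called higher, beside 11.6% of all genes, and none lower in untreated eyes, namely Zfp36 (4.70), Dusp1 (3.19), Atf3 (2.08) and Nfkbiz (1.65).

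The cytokines, chemokines and other genes that the pathway is known to induce, such as the adhesion molecule Icam1 and the enzyme Acod1, were mostly near 0 in young control retina, so the filter itself favoured those that rose. All 8 that were tested in the repeated experiment had a control mean under 0.5 FPKM and passed only through the 4xIOP libraries, and all 12 tested in the single-elevation experiment had a 3mo control mean under it. The counts of calls among them are therefore no support for a rise of the list. With that limit, 7 of the 8 were called higher in 4xIOP retina, beside 5.45% of all genes, with the largest changes in Il1b (3.26), Ccl2 (3.00), Icam1 (2.80) and Acod1 (2.11). In 18mo control against 3mo control retina 8 of the 12 were called higher, beside 11.6%, led by the chemokines Ccl3 (4.76) and Ccl4 (4.14). Over all 18 listed genes, over the filter or not, 16 were higher in both 4xIOP libraries than in both controls, beside 27.7% of genes tested. In 18mo control retina 13 were higher in both libraries than in both 3mo ones, beside 45.7%. Those shares cover only genes over the filter. The list was also chosen with earlier results of these data known, so these counts are no support for a rise of the list either. A single elevation at 3 months gave 1 call among the 12, beside 0.568% of all genes. It was Ccl2 (3.08, adjusted p = 0.0185, limma), the attractant of monocytes, which went from 0.301 and 0.105 FPKM to 5.72 and 5.06 FPKM. At 18 months Ccl2 reached 2.33 with an adjusted p of 0.0519 (limma), and no gene of the list passed the interaction test.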

How the data were processed

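Retinal RNA was extracted in TRIzol and made into strand-specific poly(A) libraries. The authors aligned reads to mm10 with STAR (2.7.8a in the submitters' processing notes) and used HOMER to count unique exonic tags of the coding strand for 1 isoform per locus. The deposited values are FPKM, in separate tables for the single and repeated experiments, so tests stayed within a table; for Tlr3 and Tlr7 these hold different isoforms. FPKM times length and the estimated mapped tags gave whole reads, within 0.000525 FPKM, for at least 99.97% of the 16591 to 17861 values checked per library, those whose rounding error was under 0.25 reads.

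Genes averaging 0.5 FPKM or more in a table (13731 and 13718) were fitted by group as log2(FPKM + 0.5) with limma-trend (limma 3.58.1, R 4.3.3), adjusting over all genes tested. The script was tested on simulated data. Read ratios have exact conditional intervals at 95%. The members and gene lists were chosen with earlier results of these data known. The 5 tested genes were named in each comparison and the 4 under the filter by their values in the libraries, and of each list the called genes with the largest changes, at most 4, or else those with the smallest p. Likeness was ranked by Pearson r over 8 libraries. The alternatives tried were pseudocounts of 0.1 and 1, no filter or 1 at 2 FPKM, quantile and median-of-ratios scaling, no trend, a replicate block, adjusted p only, a fit of just the groups compared, voom on reads with the same filter, removal of the trend with transcript length, and each library left out. A voom fit of genes with at least 10 reads in 2 libraries was chosen after seeing the data. Same-numbered libraries are not stated to come from the same mouse, and protein sequences were not used here. For 1 microglia marker values are not reported here, and it was left out of the sums.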

Additional observations from a re-analysis of the deposited data

How the results depend on the processing

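The rises of Tlr2 with age, in control and in IOP eyes, and after 4 elevations were called under every alternative that tested it (at a mean of 2 FPKM it was not tested for 4xIOP). The number of members called changed elsewhere. For IOP averaged over both ages it was 2, and fell to 1 with median-of-ratios factors, the replicate block or the length trend removed, to 0 with a pseudocount of 1, no filter, quantile normalization or either voom fit, and to between 0 and 2 with a library left out. With a pseudocount of 0.1, 1 was called after a single elevation at 3 months in place of 0. With the length trend removed 2 rather than 1 were called in each age comparison (Tlr2 and Cd14), and with a library left out between 1 and 2 between IOP eyes. For 4xIOP the count of 3 became 6 without a filter, 1 at a mean of at least 2 FPKM, 8 in the added voom fit and between 2 and 3 with a library left out. The replicate block changed no other count. Same-numbered libraries did not deviate together (r = -0.275, -0.53 and -0.29), so the numbers are not read as pairs. In the FPKM fit the median of all tested genes lay above 0 (0.16 with age, 0.13 and 0.09 for IOP at 3 and 18 months, 0.10 for 4xIOP), and median-of-ratios factors brought it to 0.01, -0.04, -0.02 and -0.01.

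Among the tested genes, reversals touched Ly96 and the interactions. Of those under the filter, Tlr9 went from 0.13 to -0.22 at 18 months and from 0.03 to -2.58 for the interaction in the added voom fit. Ly96 at 3 months went from 0.04 to -0.10 (median-of-ratios), -0.21 (quantile), -0.0671 and -0.0775 (voom, added voom) and -0.0829 (length). At 18 months it went from 0.02 to -0.0642, -0.12, -0.0989, -0.11 and -0.0901 in the same order, and for the average from 0.03 to -0.0829, -0.16, -0.083, -0.0929 and -0.0865. With the length trend removed Ly96 gave 0.99 in both age comparisons, and quantile normalization gave -0.13 for 4xIOP. Its interaction of -0.03 became 0.0373 with median-of-ratios and 0.0900 with quantile scaling. The interaction of Tlr2 became -0.88 with a pseudocount of 0.1, and -1.62 in both voom fits. That of Cd14 became -0.13, -0.16 and -0.15. With a library left out Ly96 ran from -0.50 to 0.59 at 3 months, -0.0516 to 0.0855 at 18 months, -0.24 to 0.30 on average, -0.0655 to 0.42 for 4xIOP, -0.60 to 0.49 and -0.32 to 0.16 with age in control and IOP eyes, and -0.57 to 0.52 for the interaction. The interactions of Cd14 (-0.40 to 0.45), Tlr2 (-0.26 to 0.42), Tlr3 (-0.12 to 0.34) and Myd88 (-0.51 to 0.12) also changed sign. The causes of these changes were not tested. A library left out leaves 1 in its group, assumed to vary like the others.

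Depth limits Ly96 (12 to 49 reads a library), Tlr1 and Tlr9 (0 to 124 reads), and 2 libraries a group limit every test.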

Other observations

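The genes whose levels ran most like those of the 5 tested members over the 8 single-elevation libraries were looked up among 13730 others, as a description in which points share libraries and no p is given. Nearest to Tlr2 were Col18a1 (Pearson r = 0.999), a basement membrane collagen, the myeloid transcription factor Cebpa (0.994) and the small GTPase gene Rhob (0.992). Nearest to Cd14 were Tgfb1 (0.992), Pik3ap1 (0.991), an adaptor of phosphoinositide 3-kinase, and the microglial protease gene Ctss (0.988). Nearest to Tlr3 were Snord73a (0.977), a small nucleolar RNA, and the interferon-induced genes Gbp5 (0.971) and Rsad2 (0.961). Myd88 ran with Bik (0.975), Gar1 (0.969) and Rab31 (0.968), and Ly96 with Snord32a (0.948), Mrln (0.928) and Tmed4 (0.899). The lists of Tlr2, Cd14, Tlr3, Myd88 and Ly96 shared no gene.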
